A study of Mus musculus with 4 samples.

Results

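Of 14588 mouse blood cells, 1840 were chosen as Fcer2a B cells, the B cells of peripheral blood that carry the transcript of CD23. A cell was a member if it held at least 3 UMIs of Cd79a and at least 1 of Fcer2a, no UMI of S100a6 or Adm, at most 2 of Vpreb3 and at most 1 of Cd3d, Cd3e and Cd3g together. A UMI (unique molecular identifier) marks a single captured molecule. The study profiled C57BL/6 female mice at 2 ages, 4 months (young) and 24 months (old), with no other treatment. Blood of 2 mice was pooled per sample, which left 2 young and 2 old pools, and droplet libraries that read the 3′ end of each transcript were made after a density gradient and lysis of red cells. The mice of a pool cannot be told apart, so the pool is the replicate (n = 2 per age), and every p-value measures the spread between pools. Young pools 1 and 2 gave 661 and 663 members, and old pools 1 and 2 gave 293 and 223.

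CD23, the product of Fcer2a, is the low-affinity receptor for IgE and is carried by mature naive B cells that recirculate through the follicles of spleen and lymph nodes. These cells also carry the complement receptor CD21 (Cr2), which acts in a coreceptor of the B cell receptor, and the chemokine receptor CCR7, which guides lymphocytes into lymph nodes. They take up antigen through the B cell receptor and present its peptides to helper T cells on MHC class II. The study named the B cell groups of the same blood by Fcer2a, by S100a6 with Crip1 or Zcwpw1, and by Vpreb3.

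The rule used single UMIs, so its edges are soft. Of the members, 1136 held 1 Fcer2a UMI, 481 held 2 and 223 held 3 or more, up to 7, while 2352 cells met every other part of the rule with Fcer2a at 0. Just outside, 384 cells missed the rule only by holding 1 S100a6 UMI, 67 by a Vpreb3 count of 3, 76 by a Cd79a count of 2, 21 by a summed Cd3 count of 2, and 11 by 1 Adm UMI. Just inside, 134 members held 3 Cd79a UMIs, 168 held 2 of Vpreb3 and 157 held 1 of Cd3. The members were chosen by these values, the counts of the 8 genes of the rule, which are therefore no result.

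The label was checked with markers that the rule did not use. The B cell genes Cd79b and Ms4a1 (CD20) had a UMI in 98.3% and 88.4% of members, against 22.8% and 7.34% of T cells (cells with at least 2 Cd3 UMIs and no Cd79a). After every cell was thinned at random to 1000 UMIs, Cr2 was seen in 10.1% of members and 0.394% of T cells. Ccr7 was seen in 26.7% of members and in 21.3% of T cells, many of which also use this receptor. Lists of other B cell states were not absent. Over the pools the transitional list summed to between 845 and 1055 CPM (counts per 1000000 UMIs of the members), the marginal zone list to between 1631 and 2263, the memory or age-associated list to between 582 and 780 and the plasma cell list to between 505 and 634 CPM. Much of this lay in genes such as Spib (181 to 240 CPM) and Cd24a (250 to 377 CPM) of the transitional list, Plac8 (610 to 1093 CPM) of the marginal zone list, Mzb1 (405 to 511 CPM) of the plasma cell and marginal zone lists, and Apoe (371 and 333 CPM in the young pools) of the memory list. Some other markers were close to absent over the 1840 members, with 5 UMIs of Itgax and 12 of Tbx21 (memory or age-associated B cells). Jchain and Prdm1 (plasma cells) had 7 and 3, Cd93 (transitional) had 15 and S1pr3 (marginal zone) had 4. Others of the same kinds were not: the plasma cell markers Xbp1 and Sdc1 had 257 and 41 UMIs. The marginal zone markers Cd9, Dtx1 and Cd1d1 had 221, 187 and 140. Zbtb32 and Bhlhe41, of the B1 cell list, had 48 and 25 UMIs. T cells were chosen to lack Cd79a, so the contrast with them does not part kinds of B cells. The cells with Fcer2a at 0 that met the rest of the rule carried Cr2 and Ccr7 too. In the young pools Cr2 stood at 105.1 and 122.6 CPM in members and at 92.2 and 107.1 CPM in those cells. Ccr7 stood at 313.5 and 340.6 against 318.3 and 321.9 CPM. In the old pools Cr2 was 82.4 and 68.8 against 45.4 and 24.1 CPM, and Ccr7 270.3 and 397.4 against 210.3 and 276.2 CPM. The IgM and IgD genes, which would show the naive state directly, were not analysed here, so the cells are called Fcer2a B cells throughout.

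The members held 1569415 and 1647038 UMIs in the young pools, against 691928 and 596339 in the old pools. The median was 2064 and 2111 UMIs per cell in the young, against 2181 and 2206 in the old pools, and both old pools were above both young ones. Libraries shared between 11 and 24 cell barcodes per pair, and among members at most 1.

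RNA of other cells moved with age in these droplets, and its part in the results below was tested only where a value without such cells is given. The 9 platelet genes summed to 2.55 and 7.89 CPM in the young pools and to 611 and 562 CPM in the old pools. Platelet UMIs were found in 4 of 661 and 11 of 663 young members and in 142 of 293 and 100 of 223 old ones. NK genes went the other way, with 314 and 356 CPM in the young, against 175 and 73.8 CPM in the old pools, mostly Ccl5. Red cell genes were lowest in young pool 1 (14456 CPM) and highest in young pool 2 (102111 CPM), with the old pools at 58534 and 58106 CPM, and thus did not part the ages. Monocyte genes stood at 638 and 757 CPM against 1064 and 847 CPM, and dendritic or basophil genes stayed between 3.82 and 11.7 CPM. T cell genes stood at 508 and 450 against 462 and 558 CPM, mostly Cd2 (380 and 319 against 379 and 508 CPM). Cd2 had a UMI in 52.2% of members and 64.2% of T cells, and whether it came from T cells was not tested. The 10 genes of the B1 cell list summed to 83.5 and 87.4 CPM in the young and to 259 and 240 CPM in the old pools, and most of the gap lay in Cd9, a tetraspanin that platelets carry as well. Cd9 stood at 12.1 and 15.2 CPM in young and at 146 and 127 CPM in old members. In members without a platelet UMI it was 10.9 and 14.3 CPM against 64.3 and 54.2 CPM.

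**Figure D1:**
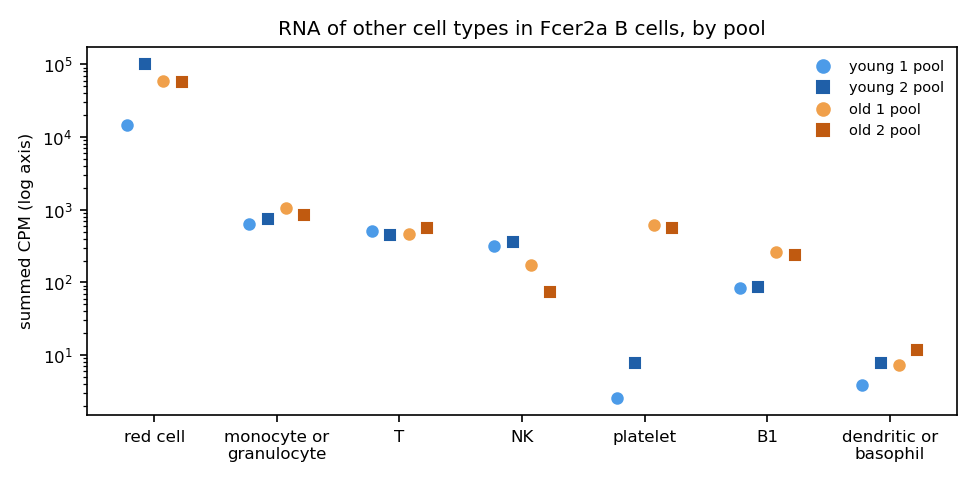
Summed CPM of marker lists of other cell types in Fcer2a B cells (vertical log axis), 1 point per pool. Platelet genes stand at 2.55 and 7.89 CPM in the young pools and at 611 and 562 CPM in the old pools, while red cell genes part young pool 1 from the other pools.

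Fcer2a B cells took a smaller part of old than of young blood. They made up 16.9% and 17.2% of all cells in the young pools, against 6.31% and 10.2% in the old pools. Of the Cd79a B cells (at least 3 Cd79a and at most 1 Cd3 UMI) they were 32.5% and 32.6% in the young, against 8.40% and 14.4% in the old pools. The exact binomial 95% intervals, which cover counting error only, ran from 30.5% to 34.6% in young pool 1 and from 12.7% to 16.2% in old pool 2, the nearest old one. The ages did not overlap, and the exact permutation test (two-sided) gave p = 0.333, the smallest that 6 labellings of 2 against 2 pools allow. With the rule applied to cells thinned to 1000 UMIs, the shares of Cd79a B cells were 22.7% and 22.3% against 8.41% and 9.15%. Over all cells the mean of the old pools minus that of the young was -8.81 percentage points, and -3.86 after thinning. Of the Cd79a B cells, 74.0% and 79.3% in the young, against 22.4% and 44.3% in the old pools lacked a UMI of S100a6. After thinning these shares were 84.7% and 88.0% against 42.0% and 65.4%. Among the cells that met the rest of the rule, Fcer2a was seen in 48.5% and 44.7% of young, against 41.7% and 34.6% of old cells, or in 27.9% and 26.1% against 21.1% and 14.1% after thinning. S100a6 and Fcer2a are genes of the rule, so these shares only break down the smaller share of members and give it no separate support.

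**Figure D2:**
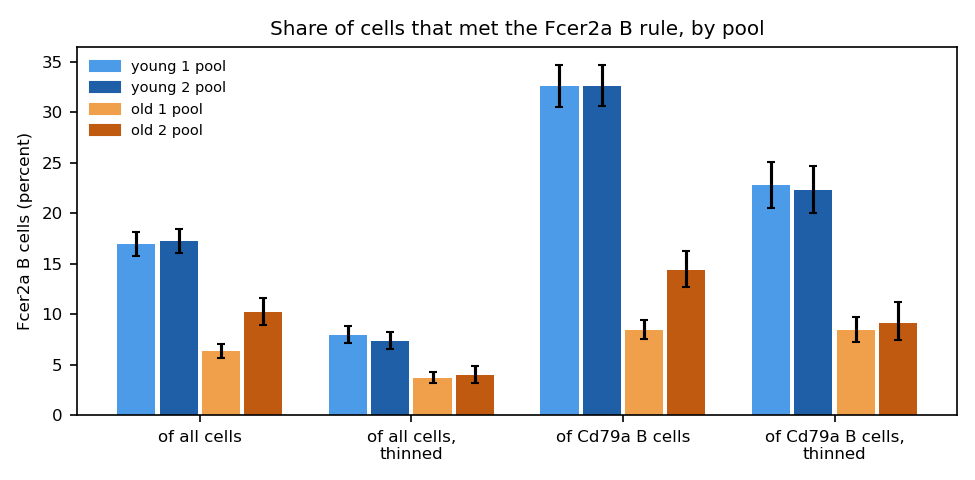
Percent of cells that met the Fcer2a B rule in each pool, of all cells and of Cd79a B cells, before and after thinning to 1000 UMIs (bars start at 0; error bars are exact binomial 95% intervals). The young pools stand at 32.5% and 32.6% of Cd79a B cells and the old pools at 8.40% and 14.4%.

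For each gene the UMIs of the members were summed per pool, and old was set against young in edgeR (TMM scaling and the quasi-likelihood test, with p-values adjusted after Benjamini and Hochberg). The test took in 2366 genes with a UMI in at least 10% of the members of each age, and an adjusted p under 0.05 was called. From here on, CPM of members are scaled with the TMM factors unless stated otherwise. 5 genes rose with age (0.211% of those tested) and 1 fell (0.0423%). Before adjustment, 197 genes had p under 0.05 (8.33%), 110 of them higher (4.65%) and 87 lower (3.68%) in old. Both old pools stood above both young ones for 463 genes (19.6%) and below them for 479 (20.2%), and 46.4% of genes had a log2 fold change above 0.

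Ly6a, which encodes the surface protein Sca-1 and responds to interferon, stood at 405 and 427 CPM in the young pools and at 946 and 649 CPM in the old pools. It rose by 0.94 on the log2 scale (SE 0.14, edgeR adjusted p = 0.035). The old pools lay well apart, with old pool 1 highest, but both were above the young ones. A Ly6a UMI was seen after thinning in 30.4% and 29.4% of young, against 54.6% and 39.5% of old members. In members without a platelet UMI its unscaled CPM were 433 and 406 against 920 and 648. In T cells of the same pools they were 157 and 182 against 621 and 627, so both old pools were above both young ones there as well.

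Plac8, a small cysteine-rich protein of leukocytes, went from 600 and 639 CPM to 1097 and 858 CPM (log2 fold change 0.66, SE 0.11, edgeR adjusted p = 0.035). Without the members that held a platelet UMI it was 0.58 and not called (edgeR adjusted p = 0.056). Marcksl1, a substrate of protein kinase C that binds actin and the membrane, was at 67.7 and 72.5 CPM in young and 122 and 156 CPM in old pools (log2 fold change 0.98, SE 0.17, edgeR adjusted p = 0.044). For Marcksl1 old pool 2 was the higher one, unlike for Ly6a and Plac8.

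Zfp36l2 was the single gene called lower in old. It encodes an RNA-binding protein that speeds the decay of mRNAs with AU-rich elements and acts with Zfp36l1 in B cell development. Its levels were 237 and 271 CPM in the young, against 151 and 129 CPM in the old pools, a fall by 0.85 on the log2 scale (SE 0.14, edgeR adjusted p = 0.035). After thinning it was seen in 23.3% and 22.2% of young, against 13.3% and 9.42% of old members. On mm10 (GENCODE vM21) the genes lie with Ly6a at 74994877 to 74998031 of chromosome 15, Plac8 at 100553725 to 100572245 of chromosome 5, Marcksl1 at 129513581 to 129515985 of chromosome 4 and Zfp36l2 at 84183931 to 84187947 of chromosome 17. The other called genes, H2-Q7 and Ifi30, are described with their pathways.

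The calls depended on single pools. Without young pool 1, young pool 2 or old pool 1, none of the 6 genes was called (edgeR adjusted p between 0.0616 and 0.695), and without old pool 2 Ly6a, Plac8 and H2-Q7 still were. The directions stayed, and the log2 fold change of Ly6a was 0.91, 0.98 and 0.65 without these 3 pools in turn. DESeq2 called Ly6a, Plac8 and H2-Q7 of the 6 and gave adjusted p = 0.051 for Zfp36l2, 0.069 for Ifi30 and 0.11 for Marcksl1. With the rule on thinned cells Zfp36l2 (edgeR adjusted p = 0.065) and Marcksl1 (0.24) were not called. Without the members that held a B1 list UMI, a choice made after seeing the data, none was called (edgeR adjusted p between 0.22 and 0.29) and the log2 fold changes ranged from -0.82 for Zfp36l2 to 1.12 for Marcksl1.

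Genes next in line did not pass the threshold and are given as values. On the higher side were 1810058I24Rik, Pdlim1, Zfos1 and Sp140, with log2 fold changes of 0.72, 1.10, 0.72 and 0.96 (edgeR adjusted p = 0.051 for each). Sp140 is a nuclear body protein of leukocytes, and Pdlim1 is a cytoskeletal adaptor. Blvrb, the biliverdin reductase B that red cells hold in quantity, had 0.61 (edgeR adjusted p = 0.13). On the lower side the smallest p was that of Cd24a, a surface glycoprotein that declines as B cells mature, at 338 and 395 CPM in young and 251 and 268 CPM in old pools (log2 fold change -0.50, edgeR adjusted p = 0.19). In the cells with Fcer2a at 0 that met the rest of the rule its direction turned, with a log2 fold change of 0.17 (edgeR adjusted p = 0.69). Fkbp4, Dnaja1, Ralgps2, Nfkbib, Foxn3, Cst3 and Notch2 followed with log2 fold changes between -0.34 and -0.67 (edgeR adjusted p between 0.28 and 0.36). Notch2 is the receptor that steers B cells toward the marginal zone fate. Xist, the RNA that silences 1 X chromosome in female cells, had -0.31 (edgeR adjusted p = 0.29). Ccl5, a chemokine of NK and T cells, stood at 178 and 227 CPM against 138 and 54.3 CPM (edgeR adjusted p = 0.28). It is a member of the NK list and makes up most of that list's sum.

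MHC class I presents peptides from inside the cell to CD8 T cells. Its heavy chains (H2-K1, H2-D1 and the nonclassical H2-Q, H2-T and H2-M genes) pair with B2m, and peptides reach them from the immunoproteasome (Psmb8, Psmb9, Psmb10) through the transporter Tap1 and Tap2. Of the 25 genes of the list 21 were tested and 1 was called. Both old pools stood above both young ones for 12 (57.1%) and below them for 1 (4.76%), against 19.6% and 20.2% of all genes tested. The median log2 fold change was 0.24 over the list and -0.01 over all genes tested. Without old pool 1 the list's median was 0.09, and without old pool 2 it was 0.42.

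H2-Q7, a nonclassical class I heavy chain (chromosome 17, 35439155 to 35443773 on mm10), was the called member. Its levels were 145 and 176 CPM in the young pools, against 358 and 259 CPM in the old pools (log2 fold change 0.96, SE 0.16, edgeR adjusted p = 0.035). The H2-Q genes are near-identical copies, so reads of H2-Q7 and of H2-Q6, at 86.9 and 99.2 against 196 and 109 CPM, may not be told apart by the authors' counting. After thinning H2-Q7 was seen in 14.2% and 14.9% of young, against 30.4% and 21.5% of old members.

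Among the other members, B2m had 2416 and 2525 CPM in young and 3579 and 3039 CPM in old pools (log2 fold change 0.42, edgeR adjusted p = 0.12). H2-K1 had 0.44 (edgeR adjusted p = 0.16) and H2-D1 had 0.20 (edgeR adjusted p = 0.58). Psmb9 stood at 147 and 169 against 267 and 219 CPM (log2 fold change 0.63, edgeR adjusted p = 0.15), and H2-M3, H2-T22 and Tap1 at log2 fold changes of 0.64, 0.56 and 0.44. Psmb8 had 0.23 and Psmb10 had -0.03. The chaperones of the endoplasmic reticulum on the list, Calr, Canx and Pdia3, lay between -0.13 and -0.00. In most of these genes old pool 1 was the highest pool. Cells thinned to 1000 UMIs held a median of 9 and 9 class I UMIs in the young pools and of 13 and 10 in the old pools.

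Class I promoters carry a shared module, in which the X2 box (core TGACG) and the Y box (core ATTGG) bind the factors that, with NLRC5 or CIITA, drive MHC genes. To show it, the 250 bases before the RefSeq start of the called heavy chain, of a classical heavy chain and of the light chain are printed 5′ to 3′ on the gene's strand (GRCm38.p6, the build called mm10), at chr17:35438905-35439154 for H2-Q7 (plus strand), chr17:34000348-34000597 for H2-K1 (minus strand) and chr2:122147437-122147686 for B2m (plus strand). Capitals mark TGACG and ATTGG.
H2-Q7: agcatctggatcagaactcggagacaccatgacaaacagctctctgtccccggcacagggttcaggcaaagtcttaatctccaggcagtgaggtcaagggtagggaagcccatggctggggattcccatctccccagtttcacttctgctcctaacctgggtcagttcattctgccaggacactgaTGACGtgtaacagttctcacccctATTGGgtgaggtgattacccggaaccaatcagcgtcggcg
H2-K1: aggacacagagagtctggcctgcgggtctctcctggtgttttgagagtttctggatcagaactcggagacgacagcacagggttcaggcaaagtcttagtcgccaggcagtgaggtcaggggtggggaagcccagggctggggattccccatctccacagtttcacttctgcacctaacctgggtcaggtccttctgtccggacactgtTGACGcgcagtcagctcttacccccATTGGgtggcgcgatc
B2m: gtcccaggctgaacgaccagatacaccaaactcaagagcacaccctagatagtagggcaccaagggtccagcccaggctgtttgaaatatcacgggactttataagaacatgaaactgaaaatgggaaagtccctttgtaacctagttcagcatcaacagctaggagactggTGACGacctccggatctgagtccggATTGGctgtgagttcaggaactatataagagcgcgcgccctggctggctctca
The boxes are 19 bases apart in H2-Q7 and 20 in H2-K1 and B2m. TGACG followed by ATTGG after 18, 19, 20 or 21 bases, on either strand, was searched in windows from 250 bases before to 50 after the start of 27025 genes, and 0.244% of them held it, or 0.873% of the 1832 windows of genes tested for age. It was found in 5 of the 19 class I members with a window (H2-Q7, H2-K1, H2-D1, H2-M3 and B2m) and in 1 of 10 class II members (H2-Aa). A pair of TTTC cores with 2 bases between them is a strict form of the interferon-stimulated response element. It was found in 3.49% of all windows and 4.09% of those of tested genes. Among list members it was in 4 of the 19 class I ones (B2m, H2-T22, H2-T23 and Psme1), in 1 of 10 class II ones (Ctss) and in 3 of 10 interferon-stimulated ones (Bst2, Phf11b and Trim30a). The gamma-activated site, TTCNNNGAA, was in 8.47% of all windows, in 6.77% of those of tested genes and in 2, 1 and 4 members of these lists. Of the 6 genes called with age, 4 had a window, and H2-Q7 held the X2 and Y pair while none matched the other patterns as written. Only these exact patterns were searched. The printed windows of H2-Q7 and H2-K1 hold agtttcacttct, whose second core differs from TTTC, so it was not counted. A gene without a match may thus still hold such an element.

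MHC class II carries peptides of engulfed antigen to CD4 T cells. H2-Aa, H2-Ab1 and H2-Eb1 are its chains, Cd74 is the invariant chain that guards the groove, H2-DM exchanges peptides, and H2-O restrains H2-DM. Of 17 listed genes 13 were tested and 1 was called. Both old pools stood above both young ones for 10 (76.9%) and below them for 1 (7.69%), against 19.6% and 20.2% of all genes tested. The median log2 fold change was 0.17. These values are TMM-scaled, and without scaling the ages overlapped, with list sums of 51967.1 and 45244.3 CPM in young and 51235.1 and 53843.5 CPM in old pools. A thinned cell held a median of 54 and 48 class II UMIs in the young, against 53 and 55 in the old pools. Ifi30, the lysosomal thiol reductase that opens disulfide bonds of antigens, was the called member, with 171 and 159 CPM in the young, against 274 and 273 CPM in the old pools (log2 fold change 0.73, SE 0.12, edgeR adjusted p = 0.035). The old pools were nearly equal. Monocytes and dendritic cells also use Ifi30, and the monocyte list was higher in the old pools. In the 793 members that held fewer than 2 UMIs of each of the platelet, NK, monocyte, and dendritic or basophil lists, its log2 fold change was 0.40 (edgeR adjusted p = 0.88). Without the members that held a platelet UMI it was 0.56 (edgeR adjusted p = 0.35).

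The class II chains were not called. Cd74 stood at 28700 and 27818 CPM in young and 29332 and 31359 CPM in old pools (log2 fold change 0.10). Not TMM-scaled, its CPM overlapped, at 30528 and 26554 against 29211 and 31013. H2-Aa, H2-Ab1 and H2-Eb1 had log2 fold changes of 0.17, 0.12 and 0.26. H2-Oa had 0.39 and H2-DMa and H2-DMb2 had 0.20 each. Ciita, the master activator of class II transcription, was at 109 and 107 CPM against 104 and 83.1 CPM (log2 fold change -0.20, edgeR adjusted p = 0.81).

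Interferon-stimulated genes are induced by interferons through factors that include IRF9. Only 14 of the 38 listed genes in the table were expressed widely enough to be tested. Beside Ly6a, none was called, and the median log2 fold change was 0.29. Higher levels in each old pool than in either young pool were seen in 7 of the 14 (50%). Lower levels in each old pool were seen in none (0%). Over all genes tested these shares were 19.6% and 20.2%. Ifi27l2a had 557 and 536 CPM in young pools, 1416 CPM in old pool 1 and 714 CPM in old pool 2 (log2 fold change 0.97, edgeR adjusted p = 0.15). Irf9 itself had 0.58 (edgeR adjusted p = 0.36). Phf11b and Trim30a had 0.67 and 0.46, while Bst2, Ifi203 and Ifi35 had -0.26, -0.12 and -0.04. Ly6e, the member with the highest level, had 0.14. Without old pool 1 the list's median was 0.11, without old pool 2 it was 0.48, and in the cells with Fcer2a at 0 it was 0.02. A thinned cell held a median of 6 and 5 UMIs of the list in the young, against 8 and 6 in the old pools. Leaving out Ly6a, Ly6e and Ifi27l2a, the mean was 2.15 and 2.19 UMIs per cell in the young, against 2.52 and 2.00 in the old pools, so the ages then overlapped. Ly6a and Ifi27l2a were seen together in 104 thinned cells of old pool 1, where the product of their shares gives 98.3, and in 46 of old pool 2, where it gives 35.1. In the young pools 82 and 75 cells held both, where the product gives 73.3 and 64.4, so the count was above the product at both ages.

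The B cell receptor signals through Cd79a and Cd79b to the kinases Lyn, Syk and Btk and the adaptor Blnk. Of 25 tested genes of this list, none was called, and the median log2 fold change was 0.03. Both old pools stood above the young ones for 5 (20%) and below them for 3 (12%), against 19.6% and 20.2% of all genes tested. The coreceptor genes Cd81 and Cr2 had log2 fold changes of -0.07 and -0.57. Cr2, one of the markers of the label, stood at 98.8 and 128 CPM in the young, against 82.7 and 69.5 CPM in the old pools (edgeR adjusted p = 0.435). Btk was at 102 and 91.6 against 52.2 and 69.5 CPM (log2 fold change -0.68, edgeR adjusted p = 0.32). Syk, Lyn and Blnk lay between -0.14 and 0.11, and Cd79b had 0.10. The inhibitory receptors Cd22, Cd72 and Siglecg had 0.05, 0.18 and -0.10.

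Receptors for homing guide the cells between blood and follicles. Ccr7 had 295 and 357 CPM in young and 271 and 402 CPM in old pools, which overlapped (log2 fold change 0.04, SE 0.16). Cxcr5, the receptor that leads B cells into follicles, had 0.04, and S1pr1, which lets them leave, had 0.00. In this list 1 of 15 tested genes had both old pools above and 1 both below (6.67% each, against 19.6% and 20.2% of all genes tested). None was called. The transcription factor Klf2, which keeps naive lymphocytes in circulation, was at 1926 and 1450 CPM in young pools, 778 CPM in old pool 1 and 1777 CPM in old pool 2 (log2 fold change -0.41, edgeR adjusted p = 0.74), so that old pool 1 stood apart. The receptors for the survival factor BAFF, Tnfrsf13c and Tnfrsf13b, had log2 fold changes of -0.08 and -0.19, and none of 14 tested genes of their list was called.

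Among B cell transcription factors none of 26 tested genes was called. In both old pools 4 stood higher (15.4%) and 7 lower (26.9%), against 19.6% and 20.2% of all genes tested. Pax5 and Ebf1, which fix B cell identity, had log2 fold changes of -0.02 and 0.17. Ikzf3 (Aiolos), which restrains B cell receptor signals, was at 110 and 96.0 CPM in the young, against 75.5 and 67.8 CPM in the old pools (log2 fold change -0.52, edgeR adjusted p = 0.435). The NF-kappaB subunit Rel had -0.39 (edgeR adjusted p = 0.59). Of the immediate early and activation genes, 0 of 13 tested were called. Jund and Dusp2 differed widely within an age: Jund was at 909 and 518 CPM in the young, against 335 and 885 CPM in the old pools, and Dusp2 at 159 and 57.9 against 23.2 and 89.9 CPM. Cd83, a surface marker of activated B cells, had 109 and 113 against 131 and 183 CPM (edgeR adjusted p = 0.445). Toll-like receptor genes were mostly too sparse, and of 5 tested genes none was called. Unc93b1, which carries endosomal Toll-like receptors to their place, had 0.24.

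Heat shock genes encode chaperones that fold proteins. Of 9 tested heat shock genes none was called, and the median log2 fold change was -0.20. Leaving out 1 pool gave medians from -0.31 (without old pool 2) to -0.14, and in the cells with Fcer2a at 0 the median was -0.11. In Fcer2a B cells both old pools stood below both young ones for 6 (66.7%) and above them for 2 (22.2%), against 20.2% and 19.6% of all genes tested. Dnaja1, a cochaperone of Hsp70, stood at 223 and 207 CPM in the young, against 134 and 164 CPM in the old pools (log2 fold change -0.54, edgeR adjusted p = 0.28). Hsp90aa1 and Hspd1 had -0.29 and -0.37. Genes of cytoplasmic ribosomal proteins had a median of 0.05 over 81 genes. In both old pools 32 were higher (39.5%) and 3 lower (3.70%), against 19.6% and 20.2% of all genes tested. This median was 0.03 without young pool 1, 0.08 without young pool 2, 0.08 without old pool 1 and 0.01 without old pool 2. Nuclear genes of oxidative phosphorylation had a median of 0.09 over 75 genes, with 28 higher (37.3%) and 4 lower (5.33%). These values are TMM-scaled, and without scaling the sums of both lists overlapped between the ages. Ribosomal genes then summed to 318044 and 297433 CPM in young and 309214 and 317620 CPM in old pools. Oxidative phosphorylation genes summed to 17300 and 15731 against 17219 and 17483 CPM. Genes of the mitochondrial genome had a median of -0.04 over 11, with 0 higher and 3 lower (27.3%), against 19.6% and 20.2% of all genes tested. None of the ribosomal, oxidative phosphorylation or mitochondrial genes was called.

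Senescence and cycling genes were near the limit of detection. Cdkn1a, the cell cycle inhibitor p21, had 3 and 3 UMIs in the young, against 3 and 0 in the old pools, and Cdkn2a, which encodes p16 and p19, had 0, 0, 0 and 1. A count of 0 allows up to 3 counts in that pool, for counting error only. Cdkn1b (p27), which resting B cells hold, was at 68.3 and 70.6 CPM against 58.0 and 37.3 CPM (log2 fold change -0.52, edgeR adjusted p = 0.57). The proliferation marker Mki67 had 1, 0, 0 and 1 UMIs.

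Levels in other B cells place these values. The sets were cut by the same genes, so differences between them are described without a test, in CPM that are not TMM-scaled. In the 2352 cells with Fcer2a at 0 that met the rest of the rule, Ly6a stood at 427 and 415 against 874 and 810 CPM, and Zfp36l2 at 245 and 266 against 156 and 126 CPM, close to the 252 and 259 against 150 and 127 CPM of Fcer2a B cells. There edgeR called 0 of 2245 genes, and 245 had p under 0.05 before adjustment. The 2916 S100a6 B cells were those with S100a6 present, Fcer2a, Adm and Jchain absent, and at most 2 Vpreb3 UMIs. There Ly6a stood at 842 and 768 against 848 and 1011 CPM. Both old pools were thus above both young ones, old pool 1 only narrowly. Its log2 fold change in those cells was 0.22, and it was not called (edgeR adjusted p = 0.57). Plac8 in those cells stood at 1951 and 1801 against 2617 and 2240 CPM, above the Fcer2a B cells of the same pool in all 4 pools. In the 348 Vpreb3 B cells (at least 3 Vpreb3 UMIs, S100a6 and Adm absent) Ly6a was 203 and 254 against 621 and 573 CPM, and Ifi30 was 651 and 480 against 844 and 458 CPM, above the Fcer2a B cells of every pool.

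**Figure D3:**
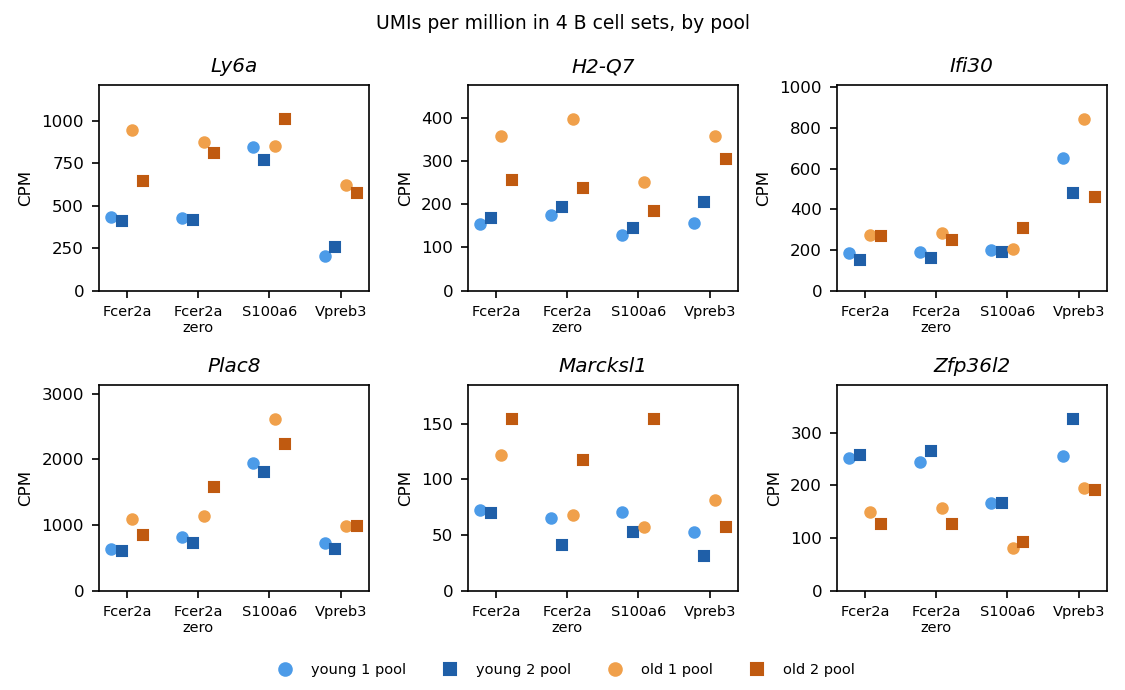
CPM, not TMM-scaled, of the 6 genes called with age in Fcer2a B cells, in each pool, for Fcer2a B cells, the cells with Fcer2a at 0, S100a6 B cells and Vpreb3 B cells (vertical axes start at 0). Ly6a in S100a6 B cells lies between 768 and 1011 CPM at both ages, and Zfp36l2 is lower in both old pools in all 4 sets.

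Other genes set the Fcer2a B cells apart from S100a6 B cells in every pool. Il4i1, an L-amino acid oxidase induced by interleukin 4, Cd72, a coreceptor that damps B cell receptor signals, and Hvcn1, a proton channel, led the genes higher in Fcer2a B cells. Hvcn1 was at 480 and 372 CPM in young and 416 and 419 CPM in old members, against 156 CPM in S100a6 B cells of young pool 1. Zbtb32, Tppp3 and Bhlhe41 led the lower ones. Zbtb32 had 5.73 and 6.07 CPM in young and 30.4 and 13.4 CPM in old members, against 130 and 94.5 and 316 and 228 CPM in S100a6 B cells. Against Vpreb3 B cells, Sfn and Ms4a4c led the higher genes, and Cd24a and Fam129c the lower ones. Cd24a was at 1094 and 855 CPM in young and 1405 and 878 CPM in old Vpreb3 B cells, against 359 and 377 and 250 and 265 CPM.

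Whether the age difference was the same in Fcer2a and in S100a6 B cells was tested as an interaction in edgeR, with the pool as a block. The S100a6 set held 285 and 260 cells in the young pools, against 1780 and 591 in the old pools. Its median depth was 3126 and 2810.5 UMIs in the young, against 4121.5 and 4039 in the old pools. Whether its make-up also changed with age was not tested. Of 2330 genes, 13 had a higher age effect in Fcer2a B cells (0.558%) and 5 a lower one (0.215%). Cd24a went in opposite directions, from 338 and 395 to 251 and 268 CPM in Fcer2a B cells and from 380 and 329 to 555 and 694 CPM in S100a6 B cells, a difference of -1.29 on the log2 scale (SE 0.18, edgeR adjusted p = 0.0061). The direction in Fcer2a B cells did not extend to the cells with Fcer2a at 0, where Cd24a stood at 422 and 361 CPM in young and 367 and 492 CPM in old pools, not TMM-scaled (log2 fold change 0.17). Ccr7 overlapped between the ages in Fcer2a B cells (log2 fold change 0.04) and went from 165 and 178 to 38.7 and 104 CPM in S100a6 B cells, a difference of 1.46 (SE 0.23, edgeR adjusted p = 0.010). This overlap did not extend to the cells with Fcer2a at 0. Their Ccr7 was lower in both old pools, at 318 and 322 against 210 and 276 CPM, not TMM-scaled. Il21r, the receptor for interleukin 21, had a difference of 1.41 (SE 0.23), Chchd10, a mitochondrial protein, of 1.40 (SE 0.25), and B4galnt1, a ganglioside synthase, of 1.25 (SE 0.20). In these genes the Fcer2a B cells had log2 fold changes between -0.01 and 0.17 and the S100a6 B cells between -1.37 and -1.08. Ebf1 and Bach2, of the B cell transcription factor list, differed by 0.72 and 1.16 in the same direction. On the lower side Vars, the valyl-tRNA synthetase, differed by -0.94, mt-Cytb by -0.52, and the hemoglobin genes Hba-a1 and Hba-a2 by -0.60 and -0.53, beside red cell RNA that varied between the libraries.

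The count of these differences turned on single pools. It was 0 without young pool 1, 11 higher and 6 lower without young pool 2, 35 and 22 without old pool 1, and 167 and 94 without old pool 2. Against Vpreb3 B cells 0 of 2222 genes (0%) differed by edgeR, and 59 had p under 0.05 before adjustment. Cd24a had the smallest p there, with a difference of -0.79 (SE 0.18, edgeR adjusted p = 0.18). The Vpreb3 set held 34 cells in old pool 2.

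**Figure D4:**
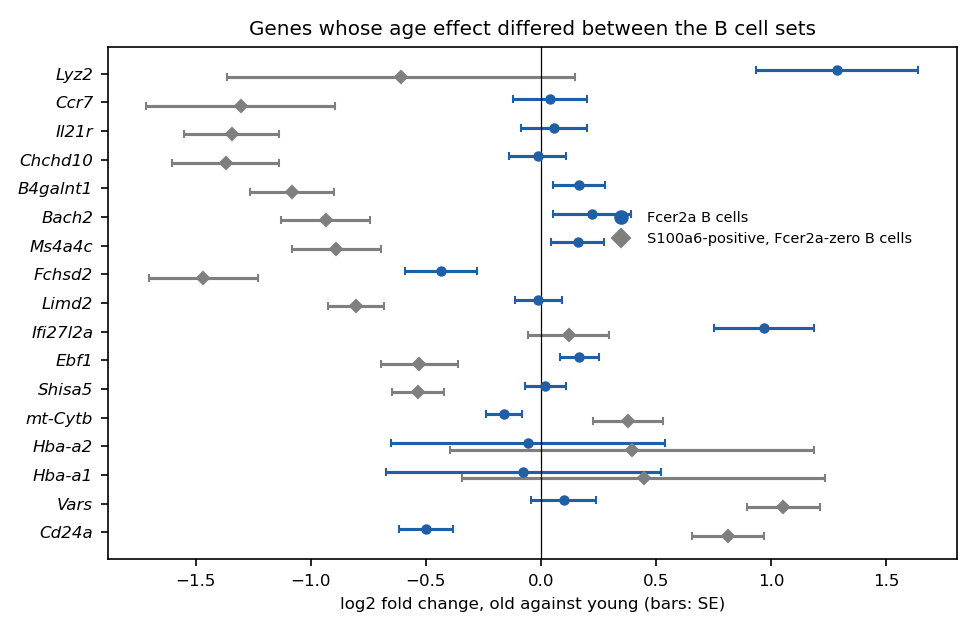
Log2 fold change of old against young (horizontal axis, bars are SE) in Fcer2a B cells and in S100a6 B cells for 17 genes whose age effect differed between the sets. Cd24a lies at -0.50 in Fcer2a and 0.81 in S100a6 B cells, and Ccr7 at 0.04 and -1.31.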

How the data were processed

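The authors made 10x 3′ libraries of blood cells and deposited a table of UMI counts per gene and cell with cell labels that name the pool. Per the submitters' processing notes and the study's methods, Cell Ranger, mm10 and Seurat 2.3.0 were used, and cells with 500 to 4000 genes and under 10% mitochondrial reads were kept. The deposited counts were taken as they stand. Doublets were not called here, and 79 members held over 5000 UMIs. Immunoglobulin genes were not analysed here.

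Members were found by the rule, and their counts were summed per pool and tested with edgeR 4.0.16 (quasi-likelihood, TMM, Benjamini-Hochberg threshold 0.05), in R 4.3.3, on genes seen in at least 10% of members of each age. SE is the log2 fold change divided by the root of F. DESeq2 1.42.0 was an alternative. The age difference between cell sets was an interaction with the pool as a block. The scripts were tested on simulated data. Thinning drew 1000 UMIs per cell once at random. Members and gene lists were chosen with earlier results of these data known.

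Named were the genes of the rule and its markers, called genes and those next by p with the ages apart, up to 12 per direction, the called and the 4 highest members of each list, and the 5 smallest p per direction of each difference. Other members of the lists were named after their values were seen. Some genes named by the rule are not reported here. Windows before gene starts came from RefSeq (GRCm38.p6). None was used for Ly6a and Zfp36l2.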

Additional observations from a re-analysis of the deposited data

Results flagged for a closer look

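The age effect, the log2 fold change of old against young, differed between Fcer2a and S100a6 B cells in the edgeR interaction test for 9 genes that the naming rule covers. It was higher in Fcer2a B cells for Ccr7 (difference 1.46), Il21r (1.41), Chchd10 (1.40) and B4galnt1 (1.25). It was lower for Cd24a (-1.29), Vars (-0.94), Hba-a1 (-0.60), Hba-a2 (-0.53) and mt-Cytb (-0.52). Hba-a1 and Hba-a2 are near-identical copies between which reads may be split, and their CPM in Fcer2a B cells ran from 2828 to 24109 and from 2417 to 20558 over the pools of 1 age. Without young pool 1 none of these differences was called.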

How the results depend on the processing

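Called higher and lower in old were 5 and 1 genes. The counts were 9 and 1 with RLE size factors or without ribosomal and mitochondrial genes, 4 and 0 with DESeq2, 36 and 2 with filterByExpr, 93 and 14 with no filter, 13 and 3 with Fcer2a of 2 or more, 7 and 0 with the rule on thinned cells, and 0 and 0 in cells with Fcer2a at 0. Chosen after seeing the data, they were 3 and 1 without cells with a platelet UMI, 0 and 0 without cells with a B1 list UMI (edgeR, 149 at an unadjusted p under 0.05) and 17 and 1 without red cell and platelet genes. Leaving out 1 pool gave 0 to 8 higher and 0 to 4 lower. With the replicate number as a block 27 and 8 genes were called, all 6 included, but the labels give the pools of a number nothing else in common, and the difference between the young pools correlated at -0.096 with that between the old pools over 2366 genes. Cd24a reversed to 0.17 in cells with Fcer2a at 0. The cause was not tested. For called genes 61 of 101 values kept their side of the threshold, and 40 kept the direction only.

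The differences from S100a6 B cells numbered 13 higher and 5 lower, 24 higher with RLE, and 69 and 23 with filterByExpr. Leaving out 1 pool gave 0 to 167 higher and 0 to 94 lower. Against Vpreb3 B cells it gave 0 to 4 higher and 0 to 3 lower. Of list medians, 104 of 439 values moved beyond the spread. The alternative on light chains was not run. Depth limits genes seen in under 10% of members, which were not tested.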
